A study of Mus musculus with 32 samples.

Results

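A set of 10 genes that mark lipid-associated macrophages were followed in the livers of wild-type (WT) and Cyp2b-null mice fed a normal diet (ND) or a diet that causes steatohepatitis. They were Gpnmb, Trem2, Tyrobp, Itgax, Cd9, Cd63, Lgals3, Spp1, Lpl and Atp6v0d2, chosen by symbol as 10 of the 41585 gene entries in the deposited count tables of female and male livers. Their response to the diet was known when they were chosen, so their levels on each diet are given below as a description with no test. The tests of these genes concern genotype on each diet.

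RNA from whole liver was sequenced from 8 groups of 4 libraries, 32 in all: WT or Cyp2b-null, female or male, on ND or, for 8 weeks, on a high-fat diet without choline in which amino acids replaced protein (CDAHFD). It held 62% fat and 0.1% methionine. Mice were 10 weeks old at the start and on the C57BL/6 background (C57Bl/6J in the study's methods), and the Cyp2b-null mice carried a CRISPR/Cas9 deletion spanning Cyp2b9, Cyp2b10 and Cyp2b13 in every tissue, so that hepatic and other effects of the deletion cannot be separated in them. The sources give 4 libraries per group and do not state outright that each came from a different mouse, so p-values measure the spread between these libraries. Library totals ran from 2906411 counts (ND-fed Cyp2b-null female 3) to 10166959 counts (ND-fed Cyp2b-null male 1). Females and males were deposited as separate tables, and for levels sex and table cannot be told apart.

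Lipid-associated macrophages are phagocytes that gather around lipid-laden or dying cells in adipose tissue, atherosclerotic plaque and fatty liver. Their program is known to run through the receptor Trem2, which binds lipids and signals through the adaptor Tyrobp, and it includes lipid handling, lysosomal, adhesive and secreted proteins. In steatohepatitis such cells arise largely from recruited monocytes, while the resident macrophages of the liver, the Kupffer cells, can be lost. None of the 10 genes is made by these cells alone: cholangiocytes make Spp1, adipocytes make Lpl, and Cd9, Cd63 and Lgals3 are found in many cells. In bulk liver, a change in the number of cells and a change in RNA per cell cannot be told apart.

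The labels held against the genes they imply. In females, Cyp2b9 averaged 590 ± 37.7 CPM (counts scaled to the TMM-adjusted library size; SD, n = 4) in ND-fed WT livers and 1.40 ± 0.479 CPM in ND-fed Cyp2b-null livers, and on CDAHFD 179 ± 60.9 against 0.762 ± 0.391 CPM. Cyp2b13 averaged 381 ± 41.1 CPM in ND-fed WT females and was at 0 in all 4 ND-fed Cyp2b-null females. In males on ND the enzymes were low, and the check rested on Cyp2b10, at 11.1 ± 3.72 CPM in WT and 0.463 ± 0.363 CPM in Cyp2b-null livers. In males on CDAHFD it rested on Cyp2b9, at 46.3 ± 23.4 CPM in WT and 0.517 ± 0.0960 CPM in Cyp2b-null livers. The lowest Xist level in a female library was 144 CPM and the highest in a male library 3.11 CPM. Albumin had the highest CPM of 8 hepatocyte markers over all libraries.

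Of the 10 genes, 9 passed the low-count filter in both tables. Trem2 was listed at 0 in all 32 libraries. It lies at chr17:48346401-48352276 (GRCm38.p6) within a run of 12 consecutive protein-coding genes, chr17:48232768-48539714, that were all listed at 0 in every library. The run includes the related receptors Trem1, Trem3, Treml2 and Treml4, and also Nfya and Oard1, which most cells express. Past its far end, the neuronal gene Lrfn2 had 1 count and Mocs1, of molybdenum cofactor synthesis, had 19556 counts over the 32 libraries. The cause of the gap was not tested, and the zeros say nothing about Trem2 transcription in these livers.

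The promoters of Gpnmb, Spp1 and Itgax are shown because these genes represent a lysosome-associated, a secreted and an integrin member of the set, and the last 2 hold letters of motifs that were searched. Each is the 250 bases before the RefSeq transcript start on GRCm38.p6, 5′ to 3′ on the plus strand, with motif matches in capitals. The windows are chr6:49036268-49036517 for Gpnmb, chr5:104434861-104435110 for Spp1 and chr7:128129300-128129549 for Itgax.
Gpnmb: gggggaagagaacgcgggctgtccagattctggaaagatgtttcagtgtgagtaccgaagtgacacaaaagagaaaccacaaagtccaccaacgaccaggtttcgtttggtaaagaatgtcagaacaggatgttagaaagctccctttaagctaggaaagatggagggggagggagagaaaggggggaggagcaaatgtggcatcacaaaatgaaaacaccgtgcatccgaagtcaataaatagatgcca
Spp1: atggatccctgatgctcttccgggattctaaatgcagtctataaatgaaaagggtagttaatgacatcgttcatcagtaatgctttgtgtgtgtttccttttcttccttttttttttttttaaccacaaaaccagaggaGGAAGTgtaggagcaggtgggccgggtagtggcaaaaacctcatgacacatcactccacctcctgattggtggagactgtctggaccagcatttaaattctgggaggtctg
Itgax: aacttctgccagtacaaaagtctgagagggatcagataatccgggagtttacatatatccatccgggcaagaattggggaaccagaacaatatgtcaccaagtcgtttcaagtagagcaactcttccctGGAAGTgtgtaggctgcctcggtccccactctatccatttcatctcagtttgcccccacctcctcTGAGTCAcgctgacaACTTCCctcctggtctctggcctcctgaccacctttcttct
The 4 motifs were searched on both strands: CACGTG, an E-box also recognised by the MiT-TFE factors of lysosomal genes; CATGTG, the core of the M-box of Mitf; TGANTCA, the AP-1 letters; and GGAAGT, an ETS core such as the myeloid factor PU.1 uses. RefSeq gave promoters for 7 of the 10 genes (8 promoters, since Spp1 has 2 starts). For Itgax and Cd63 the transcript start used lies inside the gene interval given below, and motif distances refer to that internal start. CACGTG, held by 6.02% of all 32851 promoters, was found in 0 of the 8, and the Gpnmb window held none of the 4 motifs. GGAAGT, held by 19.7% of all promoters, was found in Spp1 (111 bases before the start), in Itgax (121 and 41 bases) and in Cd63 (230 bases). TGANTCA, held by 6.75%, was found in Itgax (56 bases before the start) and Trem2 (9 bases), and CATGTG, held by 12.3%, in Cd9 (38 bases). These are matches of letters only, and no binding was measured.

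Gpnmb, a transmembrane glycoprotein of the endosomes and lysosomes of phagocytes, was nearly undetected on ND and was abundant on CDAHFD. In WT females its level was 0, 0.779, 0 and 0.173 CPM in the ND libraries and 146, 195, 298 and 191 CPM in the CDAHFD libraries. In WT males it was 0, 0, 0 and 0.429 CPM on ND and 234, 428, 558 and 383 CPM on CDAHFD. No ND library of any group held more than 3 counts of Gpnmb, so only lower bounds of the fold can be given, set against 3 counts per library. The bounds were at least 251-fold higher on CDAHFD in WT females and at least 771-fold in WT males. In Cyp2b-null mice they were at least 308-fold in females, where CDAHFD libraries read 245, 326, 225 and 186 CPM, and at least 907-fold in males, where they read 375, 369, 734 and 586 CPM. The ND and CDAHFD libraries of each sex and genotype were separated by more than 2 orders of magnitude.

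Tyrobp (DAP12; chr7:30413782-30417582) is the signalling adaptor that Trem2 and several other myeloid receptors share. It was expressed in every library, including those on ND. In WT females Tyrobp read 18.6, 17.1, 15.6 and 11.4 CPM on ND and 38.1, 64.0, 42.2 and 62.8 CPM on CDAHFD. In WT males it read 5.97, 2.11, 7.95 and 2.79 CPM on ND and 22.0, 41.8, 59.9 and 57.8 CPM on CDAHFD. The diets did not overlap in either sex, and the ND level of males lay below that of females while the CDAHFD levels of the sexes overlapped. The fitted log2 fold change (CDAHFD over ND, with its standard error) was 1.74 ± 0.23 in WT females, 2.39 ± 0.24 in Cyp2b-null females, 3.23 ± 0.33 in WT males and 3.59 ± 0.34 in Cyp2b-null males. Hcst, which encodes a sister adaptor and lies directly beside Tyrobp (chr7:30417712-30419854), had 105 counts in all 32 libraries against 6488 for Tyrobp.

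Itgax (CD11c; chr7:128129526-128150657) encodes the integrin alpha chain that pairs with Itgb2 on dendritic cells and on lipid-associated macrophages. Its ND levels were near the limit of detection, between 0 and 1.5 CPM over all 16 ND libraries. On CDAHFD it read 22.3, 26.0, 31.6 and 26.4 CPM in WT females and 20.2, 40.9, 41.5 and 44.7 CPM in WT males. Cyp2b-null livers on CDAHFD read 28.3, 29.1, 20.4 and 21.4 CPM in females and 37.5, 31.3, 63.7 and 47.5 CPM in males. The diets were thus separated by more than an order of magnitude in each group, with log2 fold changes of 5.01 ± 0.31 and 5.2 ± 0.32 in WT and Cyp2b-null females and of 5.15 ± 0.34 and 5.48 ± 0.34 in WT and Cyp2b-null males.

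The tetraspanins Cd9 and Cd63 organise membrane proteins, Cd9 at the cell surface and Cd63 in late endosomes, lysosomes and the vesicles shed from them. Cd9 (chr6:125460266-125494760) moved least of the genes that separated the diets in both sexes. WT females read between 11.7 and 21.2 CPM of Cd9 on ND and between 41.0 and 71.2 CPM on CDAHFD, and WT males between 4.39 and 17.8 CPM and between 22.4 and 53.2 CPM. Its log2 fold change was 1.71 ± 0.22 and 1.28 ± 0.21 in WT and Cyp2b-null females and 1.85 ± 0.32 and 1.74 ± 0.32 in WT and Cyp2b-null males. Cd63 (chr10:128896231-128912822) went from 1.17 to 4.41 CPM on ND to 20.7 to 28.5 CPM on CDAHFD in WT females, and from 0.429 to 3.26 CPM to 22.0 to 53.8 CPM in WT males. The log2 fold change of Cd63 was 3.06 ± 0.25 and 3.85 ± 0.26 in WT and Cyp2b-null females and 4.11 ± 0.35 and 4.05 ± 0.34 in males. Its counts are uncertain in level, because the processed pseudogene Cd63-ps (chr18:50134729-50135600) is 98.5% identical to the Cd63 transcript over 812 aligned bases and was itself given 4695 counts, against 3887 for Cd63. Reads of the gene may have been assigned to the copy or dropped, and the way multiply mapped reads were handled is not given in the sources used here.

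Lgals3 and Spp1 encode secreted proteins: galectin-3, a lectin that binds beta-galactosides and marks activated macrophages, and osteopontin, a ligand of integrins and Cd44. Lgals3 (chr14:47373860-47386167) read 6.00, 10.1, 7.46 and 4.68 CPM in ND-fed and 79.6, 121, 101 and 110 CPM in CDAHFD-fed WT females. WT males read 3.26, 6.50, 2.83 and 3.65 CPM on ND and 122, 171, 223 and 155 CPM on CDAHFD. Cyp2b-null livers on CDAHFD read 138, 134, 186 and 94.5 CPM in females and 201, 175, 216 and 176 CPM in males. The lowest CDAHFD library of each group lay far above the highest ND library, with log2 fold changes of 3.93 ± 0.26 and 4.49 ± 0.26 in WT and Cyp2b-null females and of 5.37 ± 0.24 and 5.85 ± 0.25 in males. Spp1 (chr5:104435111-104441053) was well expressed on ND already. In females it ran from 29.2 to 55.6 CPM on ND and from 101 to 225 CPM on CDAHFD over both genotypes. In males the same ranges were 9.27 to 23.7 CPM and 83.4 to 287 CPM. Its log2 fold change was 1.95 ± 0.23 and 2.30 ± 0.23 in WT and Cyp2b-null females and 2.97 ± 0.36 and 3.47 ± 0.37 in males.

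Lpl (chr8:68880555-68906932) encodes lipoprotein lipase, which frees fatty acids from circulating triglyceride and is low in healthy adult hepatocytes. Its level was 14.4 to 22.6 CPM in ND-fed and 159 to 200 CPM in CDAHFD-fed WT females. In WT males it was 14.9 to 38.2 CPM and 264 to 519 CPM, and in Cyp2b-null males 16.8 to 37.3 CPM and 349 to 458 CPM. The log2 fold change of Lpl was 3.28 ± 0.20 and 3.44 ± 0.20 in WT and Cyp2b-null females and 3.92 ± 0.28 and 3.89 ± 0.28 in males. Relative to another lipase and without correction for length, Lpl stood at 0.0589 ± 0.0127 CPM (SD, n = 4) for each CPM of Lipc, the hepatic lipase of hepatocytes, in ND-fed WT females and at 1.05 ± 0.179 on CDAHFD. In WT males this ratio was 0.124 ± 0.0666 on ND and 3.20 ± 1.31 on CDAHFD.

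Atp6v0d2 (chr4:19876838-19922566) encodes the d2 subunit of the vacuolar proton pump (V-ATPase), a tissue-restricted alternative to the ubiquitous d1 subunit that is well known in osteoclasts. It was the one detected gene of the set whose diets overlapped in females. ND-fed WT females read 22.2, 17.9, 59.7 and 29.6 CPM and CDAHFD-fed WT females 31.9, 39.3, 39.4 and 28.7 CPM. Cyp2b-null females read 29.7, 9.81, 26.1 and 16.4 CPM on ND and 42.3, 41.1, 26.0 and 25.1 CPM on CDAHFD. Female livers therefore carried this transcript on either diet. WT males read 4.89, 1.63, 3.77 and 8.37 CPM on ND and 31.4, 45.6, 44.1 and 33.7 CPM on CDAHFD, and Cyp2b-null males 1.31, 1.12, 2.48 and 1.31 CPM on ND and 33.8, 26.6, 49.5 and 44.6 CPM on CDAHFD. Every CDAHFD-fed male library exceeded every ND-fed male library, and the CDAHFD levels of the sexes overlapped. The log2 fold change of Atp6v0d2 was 0.11 ± 0.32 and 0.75 ± 0.33 in WT and Cyp2b-null females and 3.10 ± 0.30 and 4.64 ± 0.35 in males. Without ND-fed WT female 3, the library at 59.7 CPM, the value in WT females was 0.55.

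**Figure D1:**
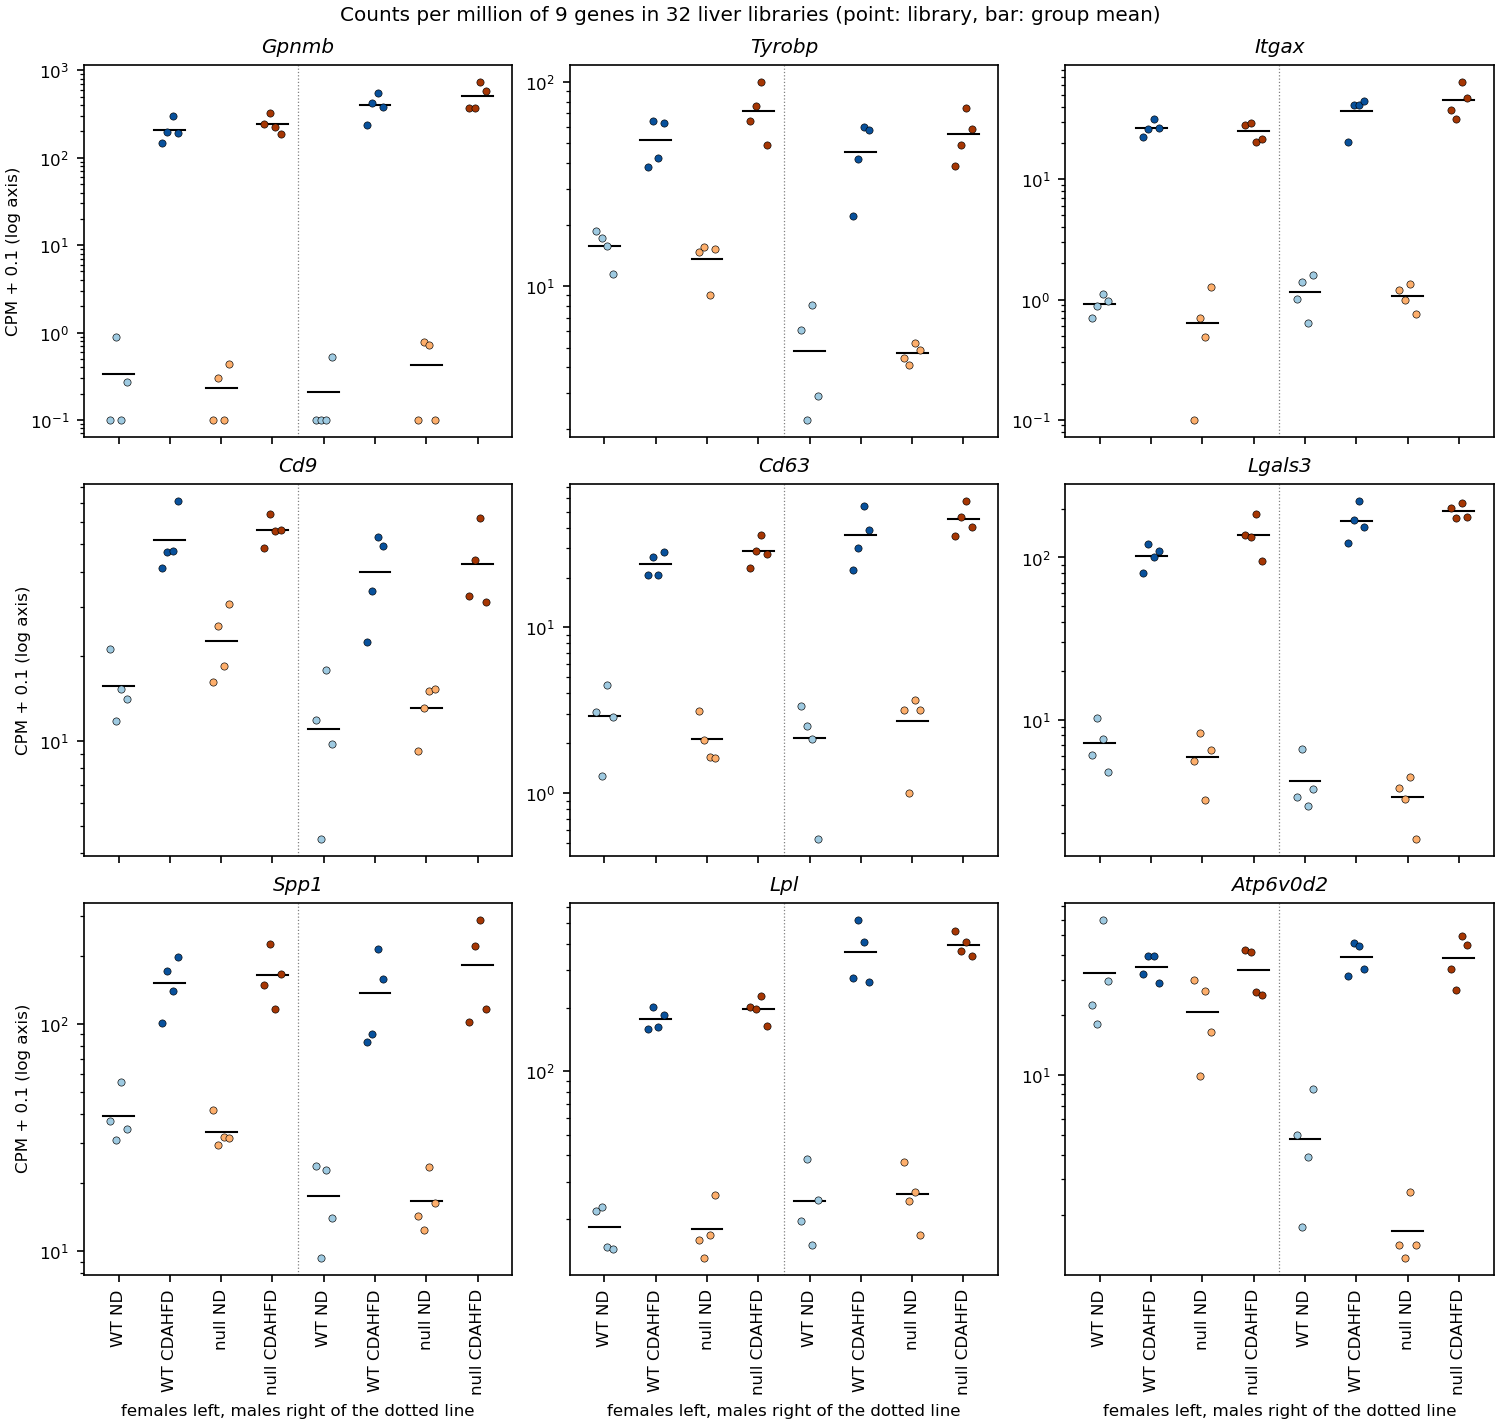
Level of each of the 9 detected genes in every library, in CPM + 0.1 on a log axis, by sex, genotype and diet; each point is 1 library and each bar the mean of 4. The CDAHFD libraries of Gpnmb lie between 146 and 734 CPM against at most 0.779 CPM on ND, while the female libraries of Atp6v0d2 overlap between the diets.

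The groups of ND and CDAHFD libraries did not overlap, with CDAHFD higher, for 8 of the 9 detected genes in females of either genotype and for 9 of 9 in males of either genotype. Among all genes tested, 14.6% in WT females, 16.3% in Cyp2b-null females, 15.9% in WT males and 19.8% in Cyp2b-null males were higher on CDAHFD with no overlap. The set was chosen for this response, so nothing is read from the difference. The median log2 fold change of the 9 genes was 3.06 in WT females, 3.44 in Cyp2b-null females, 3.92 in WT males and 4.05 in Cyp2b-null males, beside medians over all genes of −0.00, 0.03, −0.02 and −0.01. With scaling by library size only, the median of all genes moved to 0.32, 0.28, 0.37 and 0.36, and the median of the 9 genes in Cyp2b-null males to 4.44.

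**Figure D2:**
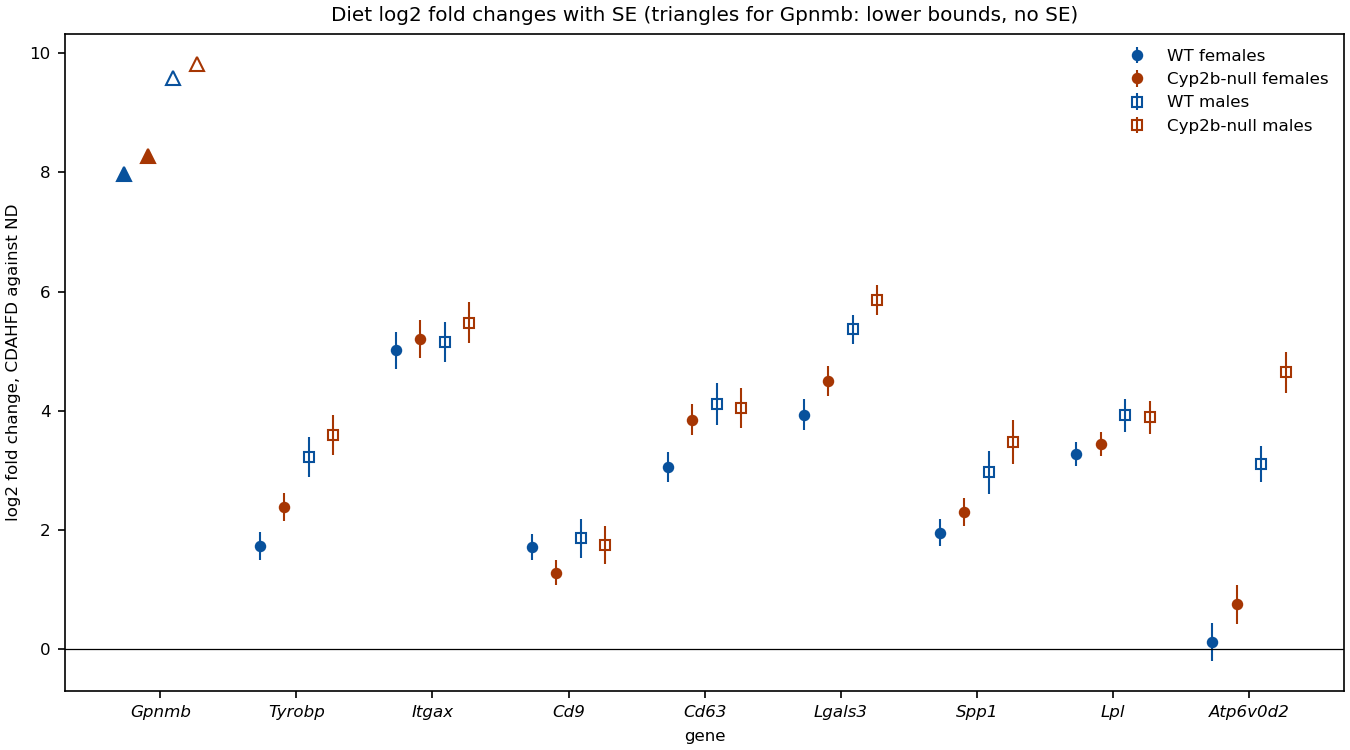
Log2 fold change (CDAHFD over ND) of each detected gene in the 4 combinations of sex and genotype, with the standard error as a bar; triangles for Gpnmb are lower bounds. Atp6v0d2 separates the sexes, at 0.11 and 0.75 in females and at 3.10 and 4.64 in males.

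Levels of different genes were compared as CPM per kilobase of the longest protein-coding GENCODE transcript. In CDAHFD-fed WT females the order was Spp1 (101 ± 27.6 CPM per kb, SD, n = 4), Tyrobp (86.8 ± 22.7), Lgals3 (72.4 ± 12.3), Gpnmb (56.1 ± 17.4), Lpl (42.9 ± 4.72), Cd9 (42.1 ± 10.9), Cd63 (21.7 ± 3.60), Atp6v0d2 (13.7 ± 2.12) and Itgax (6.56 ± 0.941). Neighbours from Spp1 to Cd9 in this order were closer than their SDs together, while Cd9 and Cd63, Cd63 and Atp6v0d2, and Atp6v0d2 and Itgax were farther apart than their SDs together. The place of Cd63 in this order is uncertain, since it counts only the reads assigned to the gene and none of those given to Cd63-ps. In CDAHFD-fed WT males Lgals3 led (118 ± 29.6 CPM per kb), followed by Gpnmb (108 ± 36.1), Spp1 (90.6 ± 41.2), Lpl (89.3 ± 29.4) and Tyrobp (76.0 ± 29.4), all within their spread. Itgax was lowest in each CDAHFD group, at 6.13 to 11.1 CPM per kb. On ND, Tyrobp (26.3 ± 5.19 CPM per kb) and Spp1 (26.2 ± 7.34) stood highest in WT females and Gpnmb lowest (0.0643 ± 0.100 CPM per kb).

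General macrophage markers were higher on CDAHFD together with the set. The lists of markers and partners here and below were chosen with earlier results of these data known, so their counts are a description. Of 11 pan-macrophage markers, 10 rose and 1 fell in females of each genotype, and 10 rose and 0 fell in males of each genotype, at an adjusted p-value under 0.05 (edgeR quasi-likelihood test, Benjamini-Hochberg adjustment). Over all genes tested, 13.9% rose and 10.2% fell in WT females, 16.9% and 13.9% in Cyp2b-null females, 18.0% and 15.0% in WT males and 20.3% and 17.1% in Cyp2b-null males. Lyz2, the macrophage lysozyme, rose by a log2 fold change of 2.46 ± 0.22 in WT females and 4.34 ± 0.33 in WT males. Adgre1 (F4/80) rose by 0.82 ± 0.17 and 1.90 ± 0.25, and the lysosomal glycoprotein Cd68 by 2.52 ± 0.23 and 3.70 ± 0.27. The summed level of the 11 markers went from 554 ± 84.7 to 1369 ± 184 CPM (SD, n = 4) in WT females and from 279 ± 74.1 to 1437 ± 339 CPM in WT males, while the sum of the 10 genes went from 132 ± 28.8 to 828 ± 126 CPM and from 69.2 ± 4.30 to 1269 ± 349 CPM. In Cyp2b-null mice the 11 markers went from 548 ± 100 to 1558 ± 282 CPM in females and from 263 ± 26.5 to 1628 ± 385 CPM in males.

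The 9 detected genes were also set against those markers. Per 100 CPM of pan-macrophage markers, Gpnmb went from 0.0401 ± 0.0574 CPM (SD, n = 4) on ND to 15.0 ± 3.51 CPM on CDAHFD in WT females and from 0.0490 ± 0.0979 to 27.4 ± 3.42 CPM in WT males. Itgax went from 0.152 ± 0.0485 to 1.95 ± 0.175 CPM in WT females and from 0.422 ± 0.230 to 2.53 ± 0.412 CPM in WT males on the same scale. Lgals3 went from 1.26 ± 0.288 to 7.50 ± 0.746 CPM and from 1.55 ± 0.736 to 11.7 ± 1.09 CPM. Lpl went from 3.27 ± 0.372 to 13.0 ± 1.63 CPM and from 9.38 ± 4.60 to 26.0 ± 7.84 CPM, and Cd63 from 0.534 ± 0.274 to 1.77 ± 0.241 CPM and from 0.741 ± 0.485 to 2.46 ± 0.406 CPM. For these 5 genes the ratio was higher on CDAHFD in each sex and genotype, with no overlap between the diets. The ratio of Spp1 was higher in the mean but overlapped between the diets in each group, and that of Tyrobp overlapped in WT and did not in Cyp2b-null mice, where it went from 2.45 ± 0.309 to 4.57 ± 0.564 CPM in females and from 1.77 ± 0.315 to 3.37 ± 0.346 CPM in males. Tyrobp went from 2.82 ± 0.253 to 3.77 ± 0.748 CPM in WT females and from 1.63 ± 0.725 to 3.06 ± 0.659 CPM in WT males, and Spp1 from between 4.81 and 10.6 to between 9.16 and 13.1 CPM and from 6.33 ± 2.46 to 9.26 ± 2.49 CPM. Cd9 went from 2.84 ± 0.724 to 3.76 ± 0.695 CPM in WT females and from 3.85 ± 1.45 to 2.71 ± 0.467 CPM in WT males, and from 4.21 ± 1.21 to 3.69 ± 0.800 CPM and from 5.07 ± 1.51 to 2.62 ± 0.634 CPM in Cyp2b-null females and males. Atp6v0d2 went from 6.11 ± 3.86 to 2.57 ± 0.448 CPM in WT females and from 1.85 ± 1.43 to 2.75 ± 0.494 CPM in WT males. In Cyp2b-null mice Atp6v0d2 went from 3.87 ± 1.99 to 2.19 ± 0.602 CPM in females and from 0.594 ± 0.234 to 2.36 ± 0.278 CPM in males, the last with no overlap. These ratios describe whole tissue, and the part of macrophage number in them was not tested.

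Monocyte markers were higher and resident Kupffer cell markers were mixed. Of 10 monocyte markers, 10 rose in WT females, 9 in Cyp2b-null females, 9 in WT males and 10 in Cyp2b-null males, and 0 fell. Their sum went from 15.4 ± 2.44 to 79.8 ± 17.7 CPM in WT females and from 8.90 ± 1.64 to 81.6 ± 17.3 CPM in WT males. Plac8, at the highest CPM, had log2 fold changes of 1.35 ± 0.25 and 2.19 ± 0.26, and the fractalkine receptor Cx3cr1 rose by 4.62 ± 0.43 and 4.61 ± 0.43. Of 11 Kupffer cell markers, 1 rose and 3 fell in WT females, 2 and 3 in Cyp2b-null females, and 4 and 2 in males of each genotype. The Kupffer markers that fell most were Timd4, a receptor for phosphatidylserine, at −4.15 ± 0.43 in WT females and −2.07 ± 0.42 in WT males, and the haemoglobin scavenger receptor Cd163, at −3.64 ± 0.49 and −3.00 ± 0.45. Clec4f, a lectin confined to Kupffer cells, had log2 fold changes of −0.53 ± 0.21 and 0.36 ± 0.22 and did not pass the test, and Cd5l, a secreted scavenger protein, rose by 0.65 ± 0.20 and 1.86 ± 0.24. The sum of the Kupffer markers went from 571 ± 100 to 548 ± 80.5 CPM in WT females, from 558 ± 84.4 to 654 ± 126 CPM in Cyp2b-null females, from 354 ± 71.6 to 561 ± 121 CPM in WT males and from 356 ± 36.0 to 554 ± 70.6 CPM in Cyp2b-null males. The pan-macrophage sum, by contrast, went up in each sex and genotype. The Kupffer sum was 103 ± 8.48% of the pan-macrophage sum in ND-fed WT females and 41.1 ± 11.1% on CDAHFD, and 129 ± 16.7% and 39.5 ± 5.67% in WT males. The nuclear receptor Nr1h3 held 115 ± 10.4 CPM of the Kupffer sum in ND-fed WT females and 132 ± 23.8 CPM in ND-fed WT males. Its log2 fold changes, −0.12 ± 0.12 and −0.06 ± 0.12, did not pass the test. Which cells carried Nr1h3 was not tested.

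**Figure D3:**
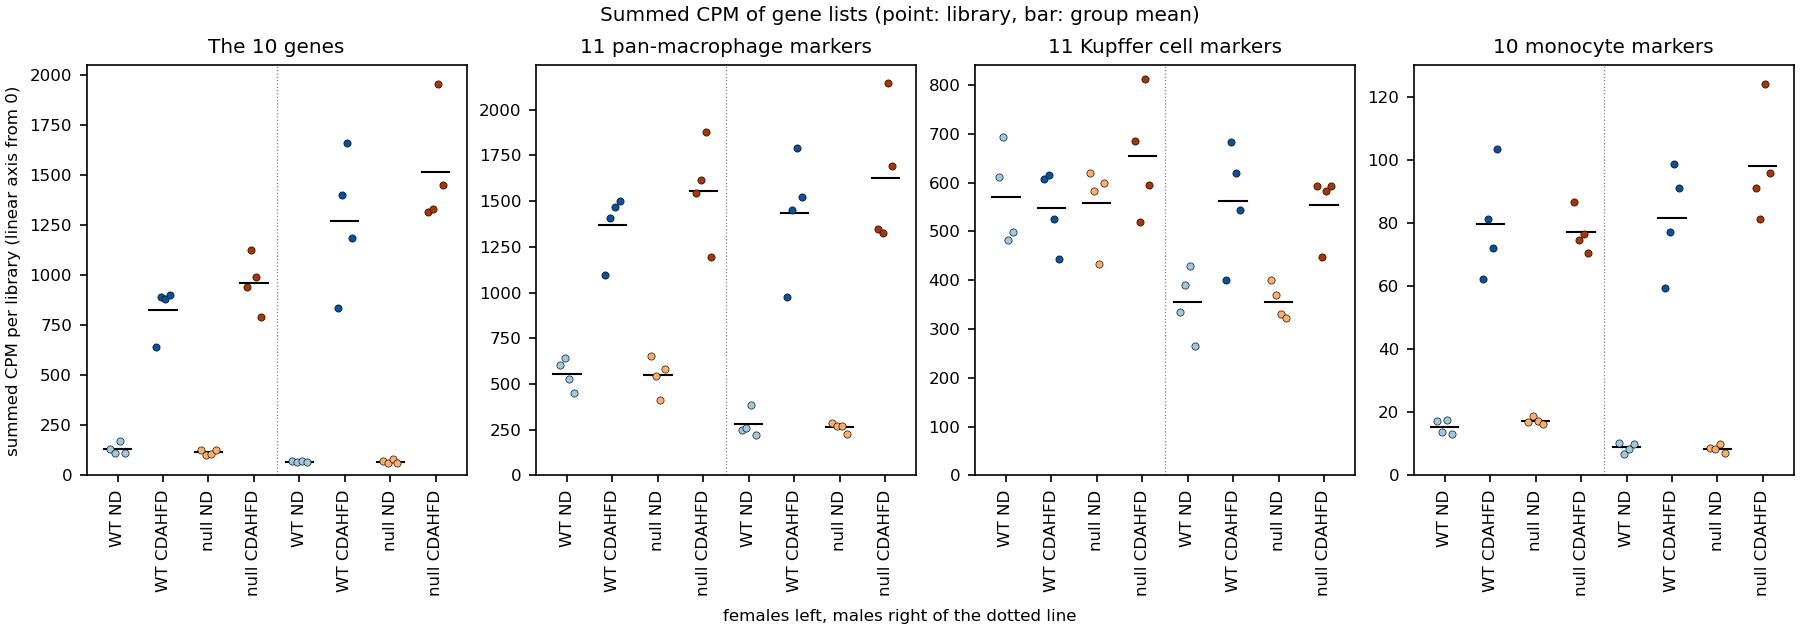
Summed CPM in every library of the 10 genes and of 11 pan-macrophage, 11 Kupffer cell and 10 monocyte markers, by group; points are libraries and bars are means of 4. The set, the pan-macrophage and the monocyte sums are higher on CDAHFD in each sex, while the Kupffer sum is 571 CPM on ND and 548 CPM on CDAHFD in WT females and 354 and 561 CPM in WT males.

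Other cell types that make some of these genes were measured beside them. Of 10 stellate cell and fibroblast markers, 6 rose in WT females, 8 in Cyp2b-null females, 7 in WT males and 9 in Cyp2b-null males and 0 fell, with a sum of 321 ± 45.3 CPM on ND and 721 ± 107 CPM on CDAHFD in WT females. Cholangiocyte markers, relevant to Spp1, had a sum of 7.82 ± 0.777 and 15.9 ± 1.68 CPM in WT females and of 12.1 ± 5.61 and 21.4 ± 9.22 CPM in WT males, with Sox9 at the highest CPM and Cldn7 at 0 throughout. Of those tested, 1 of 4 rose in WT females, 2 of 4 in Cyp2b-null females, 2 of 5 in WT males and 1 of 5 in Cyp2b-null males, and the defining keratins Krt7 and Krt19 passed the test in none of the 4 contrasts. The calls were Sox9, a transcription factor of the ducts, with a rise of 1.58 ± 0.33 in WT and 1.21 ± 0.32 in Cyp2b-null females, the adhesion molecule Epcam, with 1.64 ± 0.35 in Cyp2b-null females and 2.08 ± 0.66 and 1.99 ± 0.62 in WT and Cyp2b-null males, and the mucin Muc1, with 1.64 ± 0.60 in WT males. Of 6 adipocyte markers, relevant to Lpl, Lep was at 0 in all libraries, Adipoq and Plin1 were at 0 in all 16 CDAHFD libraries, and 2 were tested. Cidec, a lipid droplet protein that fatty hepatocytes make as well, rose in each contrast, by a log2 fold change of 3.85 ± 0.47 and 3.32 ± 0.44 in WT and Cyp2b-null females and 3.33 ± 0.47 and 1.53 ± 0.39 in males. The carbonic anhydrase Car3, the most abundant of the list, fell in males of each genotype, by 1.18 ± 0.23 in WT males, and had −0.73 ± 0.31 in WT females, which did not pass the test. In ND-fed WT males Car3 averaged 5849 ± 517 CPM and Adipoq 0.108 ± 0.132 CPM, so Car3 is not read as adipocyte content. Dendritic cell markers, relevant to Itgax, gave 0 higher and 1 lower of 4 tested in WT females, 1 and 1 of 4 in Cyp2b-null females, and 3 and 1 of 5 in males of each genotype. The lower marker was Dpp4 in each contrast, at −0.40 ± 0.13 in WT females and −0.44 ± 0.10 in WT males. Dpp4 carried most of this list, at 176 ± 21.0 CPM of a sum of 186 ± 22.3 CPM in ND-fed WT females. Neutrophil markers rose for 3 of 3 tested in each contrast, but their sum reached at most 27.0 CPM in any library. Of 8 hepatocyte markers, 6 fell in WT females, 6 in Cyp2b-null females, 7 in WT males and 6 in Cyp2b-null males, and 0 rose. The part of these cell types in the levels of the 10 genes was not tested.

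The partners of each gene were counted from lists of its pathway. For the Trem2-Tyrobp complex, 10 of 12 tested genes rose in WT females, 9 of 12 in Cyp2b-null females, 12 of 12 in WT males and 11 of 12 in Cyp2b-null males, out of 18 listed. Syk, the kinase recruited by Tyrobp, rose by a log2 fold change of 1.68 ± 0.25 in WT females and 2.62 ± 0.28 in WT males. Adam10, a protease that sheds Trem2, rose by 0.50 ± 0.14 and 0.43 ± 0.15, and Adam17, of the same kind, had −0.17 ± 0.15 in WT females and rose by 0.34 ± 0.13 in WT males. All 3 tested beta2 integrin chains rose in each contrast, among them Itgb2, the partner of Itgax, by 2.19 ± 0.22 and 4.07 ± 0.28. Itgam, the alpha chain of complement receptor 3, had at most 3 counts per library in WT males on ND and was at least 35.2-fold higher on CDAHFD there, and rose by 2.64 ± 0.32 in WT females. One CPM of Itgam was accompanied on CDAHFD by 2.28 ± 0.208 and 2.11 ± 0.0960 CPM of Itgax in WT and Cyp2b-null females and by 2.05 ± 0.499 and 1.94 ± 0.240 CPM in males. The ratio is not read on ND, where both genes had few counts.

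Of 25 other genes of lipid-associated and disease-associated macrophages, 24 were tested. In WT females 16 rose and 1 fell, in Cyp2b-null females 18 and 2, in WT males 17 and 2, and in Cyp2b-null males 16 and 2. Mmp12, macrophage elastase, rose most, by a log2 fold change of 7.97 ± 0.33 in WT females and 9.65 ± 0.42 in WT males, and Clec7a (dectin-1) rose by 3.67 ± 0.16 and 5.14 ± 0.32. On ND, Mmp12 averaged only 0.526 ± 0.581 CPM in WT females and 0.301 ± 0.381 CPM in WT males (SD), so the size of its rise is uncertain. The lysosomal proteases Ctsb and Ctsl had values of 0.46 ± 0.12 and 0.26 ± 0.15 in WT females, of which Ctsb passed the test, and rose by 0.86 ± 0.12 and 0.55 ± 0.14 in WT males. Apoe, which hepatocytes make in large amounts, was −0.27 ± 0.16 in WT females, did not pass the test there, and fell by 0.50 ± 0.19 in WT males.

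For the remaining members, partners moved less uniformly. Among 14 tetraspanins other than Cd9 and Cd63, 5 rose and 1 fell in WT females, 7 and 1 in Cyp2b-null females, 6 and 1 in WT males, and 6 and 2 in Cyp2b-null males. The leukocyte tetraspanin Cd53 rose by 1.52 ± 0.23 in WT females and 2.89 ± 0.32 in WT males and Tspan8 by 2.68 ± 0.50 and 3.21 ± 0.79, while the broadly expressed Cd81 read 0.02 ± 0.12 and −0.09 ± 0.11. Galectins other than Lgals3, with the binding protein Lgals3bp, rose for 3 of 6 tested in WT females, 4 of 6 in Cyp2b-null females and 2 of 5 in males of each genotype, led by Lgals1 at 1.80 ± 0.21 in WT females and 1.65 ± 0.25 in WT males. Osteopontin receptors rose for 4 of 9 in females of each genotype, 5 of 9 in WT males and 7 of 9 in Cyp2b-null males, with Cd44 at 1.45 ± 0.19 and 2.53 ± 0.23 in WT females and males. Of 12 tested partners of Lpl and related lipases, 1 rose and 5 fell in WT females, 1 and 3 in Cyp2b-null females, 1 and 5 in WT males and 0 and 7 in Cyp2b-null males. Those that fell included the lipoprotein component Apoc3, at −0.79 ± 0.19 and −0.76 ± 0.20 in WT females and males.

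The other subunits of the enzyme had smaller diet effects in males than Atp6v0d2. The other V-ATPase subunits, 17 of 20 listed being tested, rose for 4 and fell for 0 in WT females, 5 and 1 in Cyp2b-null females, 7 and 0 in WT males, and 5 and 0 in Cyp2b-null males. Of those not tested, Atp6v1c1 was listed at 0 in all libraries, and the cause of this was not tested. Tcirg1, the a3 subunit shared by osteoclasts and phagocytes, rose by a log2 fold change of 0.68 ± 0.16 in WT females and 0.64 ± 0.17 in WT males, and Atp6v1b2 by 0.92 ± 0.13 and 1.14 ± 0.15. Atp6v0e2, a subunit at only 0.473 ± 0.262 CPM in ND-fed and 2.46 ± 0.536 CPM in CDAHFD-fed WT males, had the largest value of these subunits, a rise of 2.28 ± 0.51 in WT males and of 1.49 ± 0.48 in Cyp2b-null males. In females Atp6v0e2 read 1.58 ± 0.59 in WT, which did not pass the test, and passed it in Cyp2b-null mice, where no ND library held more than 3 counts and the rise was at least 3.43-fold. The ubiquitous Atp6v0d1 read 0.28 ± 0.14 in WT females and rose by 0.41 ± 0.10 in WT males. Atp6v0d2 amounted to 59.0 ± 41.0% of Atp6v0d1 in CPM, without correction for length, in ND-fed WT females and 49.4 ± 8.75% on CDAHFD (SD, n = 4). The ND libraries of WT females ran from 26.4 to 117%, the highest being female 3, and the diets overlapped. In Cyp2b-null females the share was 31.5 ± 13.5% and 50.3 ± 18.6%, also with overlap. In males it went from 9.33 ± 5.51% to 58.6 ± 11.3% in WT and from 2.93 ± 1.11% to 63.7 ± 19.4% in Cyp2b-null mice, with no overlap. Of the 4 MiT-TFE factors, which drive lysosomal genes, 0 rose in females of either genotype and 2 in males of each genotype, Tfe3 by 0.38 ± 0.13 and Tfec by 1.95 ± 0.56 in WT males.

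**Figure D4:**
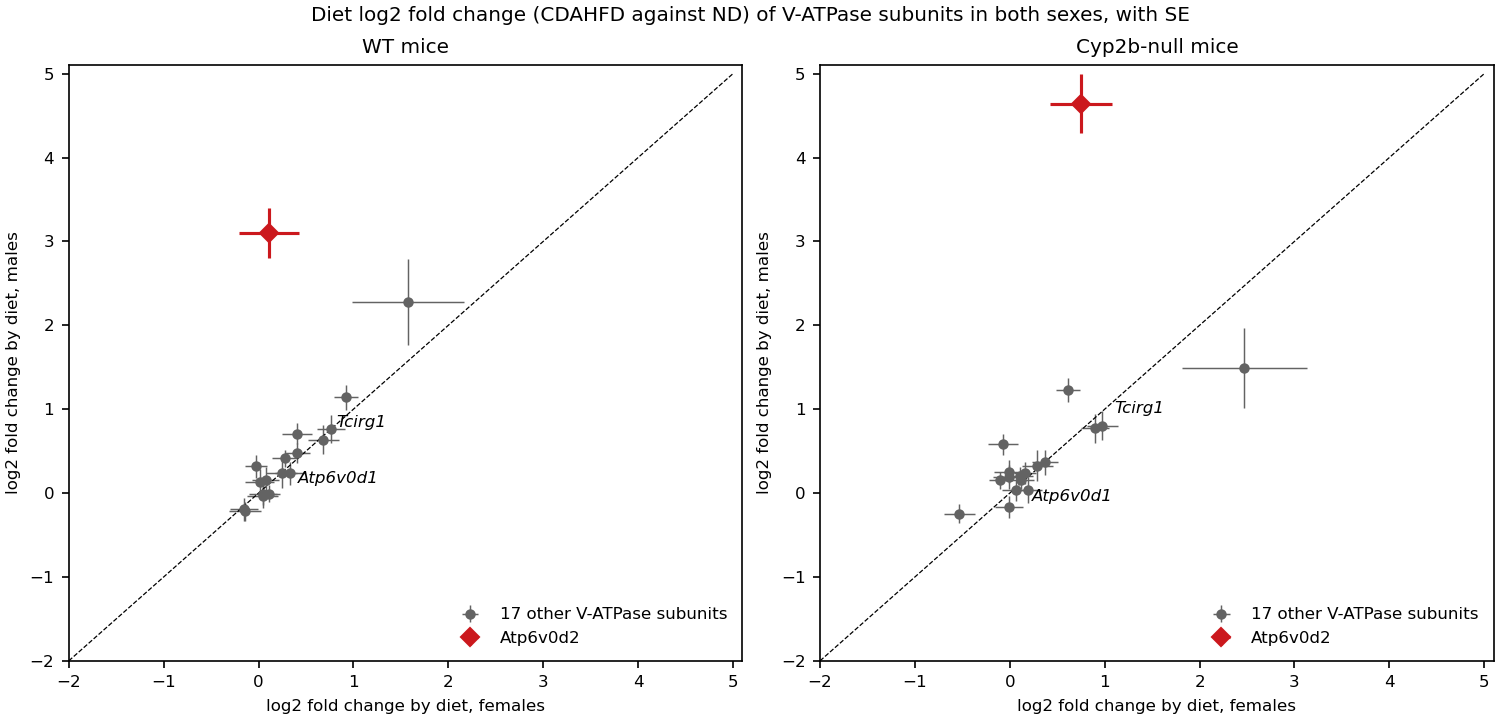
Diet log2 fold change (CDAHFD over ND) of Atp6v0d2 and of 17 other V-ATPase subunits, females on one axis and males on the other, with standard errors, in WT and Cyp2b-null mice. Atp6v0d2 lies off the diagonal, at 0.11 in WT females and 3.10 in WT males.

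Cyp2b-null and WT livers were compared on each diet. The study bought its WT mice from a supplier and had made the Cyp2b-null line itself. Genotype and the source of the mice therefore cannot be told apart in these tests. None of the 9 genes passed the test between Cyp2b-null and WT livers on CDAHFD in either sex (edgeR quasi-likelihood test, adjusted over all genes). On ND, Gpnmb held at most 3 counts and Itgax at most 10 in each library. Both passed the low-count filter only through their CDAHFD libraries, so their ND tests could not show a difference and are not read. None of the other detected genes of the set passed the test on ND in either sex. Few genes of any kind did: 0.0756% of those tested in ND-fed females, 0.0371% in ND-fed males, 0.0227% in CDAHFD-fed females and 0.0297% in CDAHFD-fed males. At an unadjusted p under 0.05, Cd9 alone differed in ND-fed females and Atp6v0d2 alone in ND-fed males, with Gpnmb and Itgax not read there. The shares of all genes were 5.75% and 8.26%. On CDAHFD, 2 of the 9 genes differed in females (Tyrobp and Lgals3) and 0 in males, beside 5.83% and 3.62% of all genes. Cd9 was 0.55 ± 0.22 higher on the log2 scale in ND-fed Cyp2b-null females (adjusted p = 0.795). On CDAHFD, Tyrobp was 0.48 ± 0.21 and Lgals3 0.43 ± 0.20 higher in Cyp2b-null than in WT females, each with an adjusted p of 0.826. The groups overlapped in each of these.

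The largest genotype value was that of Atp6v0d2 in ND-fed males, at −1.54 ± 0.43 on the log2 scale (unadjusted p = 0.00164, adjusted p = 0.219). The 4 Cyp2b-null libraries read 1.12 to 2.48 CPM and the 4 WT libraries 1.63 to 8.37 CPM, so the groups overlapped at a level of few counts. It was called by DESeq2 (adjusted p = 0.0229), without the low-count filter (adjusted p = 6.3e-05) and without ND-fed WT male 2 (adjusted p = 0.0481). On CDAHFD, where the transcript was abundant, the genotypes did not differ beyond their spread, at −0.06 ± 0.31 in females and −0.00 ± 0.24 in males.

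The dependence of the diet effect on genotype (Cyp2b-null minus WT log2 fold change) is, for the genes of the set, formed from diet effects known when they were chosen, and is given with no test. Leaving out Gpnmb, whose ND libraries held at most 3 counts, the differences ran from −0.44 ± 0.30 for Cd9 to 0.79 ± 0.40 for Cd63 in females and from −0.11 ± 0.45 for Cd9 to 1.54 ± 0.49 for Atp6v0d2 in males. Tyrobp read 0.65 ± 0.33 in females and 0.36 ± 0.48 in males, and Lgals3 0.56 ± 0.36 and 0.49 ± 0.36. Over all genes tested with edgeR, 0 were called for this difference in females (830, or 6.28%, at an unadjusted p under 0.05) and 0.00743% in males. None of the genes of the cell type and pathway lists was called for genotype on either diet or for the dependence on genotype, apart from the deleted Cyp2b genes.

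**Figure D5:**
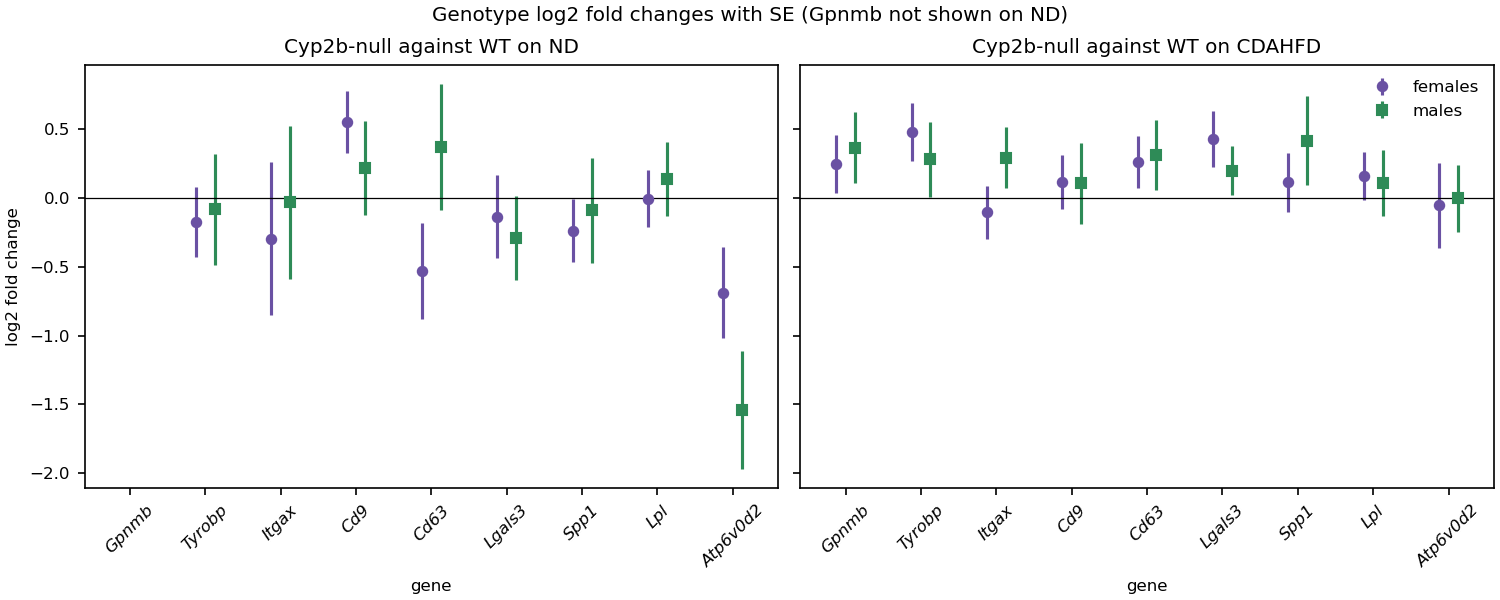
Log2 fold change (Cyp2b-null over WT) of each detected gene on ND and on CDAHFD in both sexes, with the standard error as a bar; Gpnmb is not shown on ND, where it was at or below 3 counts in each library. The values lie around 0, and that of Atp6v0d2 in ND-fed males, −1.54, is the lowest. Those of Itgax on ND rest on few counts and are not read.

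The diet effect was also set side by side between the sexes. Differences for the genes of the set are formed from diet effects that were known when the genes were chosen, so they are given as a description with no test. The log2 fold change of Atp6v0d2 was 3.01 ± 0.48 larger in WT males than in WT females and 3.91 ± 0.55 larger in Cyp2b-null males than in Cyp2b-null females (value ± SE, from an edgeR fit of all 8 groups). In males, 8 of 8 CDAHFD libraries lay above all ND libraries, and in females the diets overlapped in both genotypes. The difference ran from 2.57 to 3.41 in WT and from 3.66 to 4.19 in Cyp2b-null mice when 1 library was left out.

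Among the other members, the difference (male minus female) was 1.45 ± 0.38 in WT and 1.38 ± 0.38 in Cyp2b-null mice for Lgals3, 1.51 ± 0.43 and 1.22 ± 0.44 for Tyrobp, and 1.04 ± 0.44 and 1.20 ± 0.45 for Spp1. It was 1.08 ± 0.50 and 0.22 ± 0.52 for Cd63, 0.67 ± 0.35 and 0.47 ± 0.34 for Lpl, 0.16 ± 0.41 and 0.48 ± 0.40 for Cd9, and 0.16 ± 0.66 and 0.29 ± 0.70 for Itgax. No sex difference is given for Gpnmb, whose ND libraries held at most 3 counts. Of all genes tested, 0.970% were called for this difference in WT and 3.40% in Cyp2b-null mice (edgeR quasi-likelihood test, adjusted p under 0.05). None of the 17 other V-ATPase subunits was called in either genotype. Of 11 pan-macrophage markers, 2 were called in WT mice, Lyz2 at 1.91 ± 0.39 and Csf1r at 1.13 ± 0.28, and 6 in Cyp2b-null mice, among them Adgre1 at 1.53 ± 0.32 and Cd68 at 1.67 ± 0.38. The part of macrophage content in the sex differences of the set was not tested.

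In 3 of the 8 groups, 1 library stood at the same end for 7 or more of the 9 genes. CDAHFD-fed WT female 1 was lowest of its group for 7 of 9 genes, CDAHFD-fed WT male 1 was lowest for 8 of 9, and CDAHFD-fed Cyp2b-null male 3 was highest for 8 of 9. In the other 5 groups no library was at one end for more than 6 of the 9 genes. The same libraries stood at the same end for the pan-macrophage sum, at 1098 CPM against 1408 to 1499 CPM in the rest of the group, at 977 against 1454 to 1792 CPM, and at 2147 against 1327 to 1694 CPM.

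Genes whose pattern was most like that of the set were sought over 12978 genes, by the smaller of the Pearson correlations with the mean Z-score of the 9 genes in the 16 female and the 16 male libraries. The first were the fibrillar collagen Col3a1 (r = 0.989), the annexin Anxa5 (0.988), Cd63-ps (0.987), Clec7a (0.986), Anxa2 (0.985) and the collagen Col1a2 (0.984), followed by Pkm, Cotl1, Mmp12 and Vsig8 at 0.981 to 0.979. These correlations mostly restate the contrast between the diets, which all points share, and by Spearman's rho 1 of the 10, Cd63-ps, stayed among the first 10. Each member is itself part of the mean Z-score, which raises its correlation, so members are compared only with each other. Among the members themselves, by Pearson correlation, Lgals3 (0.981), Spp1 (0.979) and Gpnmb (0.978) followed the common pattern most closely and Cd9 (0.907) and Atp6v0d2 less closely, the last at 0.519 in females and 0.951 in males. By Spearman's rho the order differed: Spp1 (0.935), Tyrobp (0.891) and Cd63 (0.876) stood highest, Gpnmb (0.797) lay below Cd9 (0.818), and Atp6v0d2 (0.597) was lowest. Taken singly, the closest gene to Gpnmb was Lgals3 (r = 0.987), that to Itgax was Mmp12 (0.983), that to Lpl was Sirpa (0.982) and that to Tyrobp was Cyth4 (0.980). For Atp6v0d2 the closest gene was Cenpm at only 0.811.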

How the data were processed

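Raw counts per gene (whole numbers, not normalized) were deposited by the authors as 2 tables, 16 female and 16 male libraries. The submitters' processing notes name FastQC, Trimmomatic, GSNAP, Subread and edgeR on GRCm38.p6; versions, strand and multiple-mapping settings are not given in the sources used here. Symbols of 2 genes occur more than once, and 0 sample columns were left unused. Genes were filtered per table with filterByExpr (count 10, total 15; 13226 genes in females, 13460 in males, 14020 for all libraries), scaled by TMM and tested with the edgeR 4.0.16 quasi-likelihood test in R 4.3.3, with 4 groups per sex or all 8 groups for sex differences, and Benjamini-Hochberg adjustment over all genes. The fits were tested on simulated data. CPM used TMM-scaled library sizes. No replicate pair agreed within sampling noise (smallest chi-square per degree of freedom 3.34). A group with at most 3 counts in each library was taken at that floor. DESeq2 1.42.0, other scalings and filters, the replicate block, leaving out each library, and leaving out CDAHFD-fed Cyp2b-null female 3 and male 4, which the study's heat maps do not show, were alternatives.

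The members and lists were chosen with earlier results of these data known. Text names all members and, per list, genes among the 3 most abundant and the 2 with the largest WT diet effect at a mean of 1 CPM or more, the 10 genes most like the members, each member's closest gene, and Adgre1, Cd68, Tcirg1 and Atp6v0d1. The genes called for sex differences, the defining markers of other cell types, Hcst, Lipc, Krt7, Krt19, Cd63-ps and the neighbours of Trem2 were named after their values were seen. The text names only some of the genes that this rule picks, and the others are not reported here. Promoters came from RefSeq and transcript lengths from GENCODE vM21.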

Additional observations from a re-analysis of the deposited data

Results flagged for a closer look

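Of 72 sets of 4 libraries, 9 genes in 8 groups, 4 held a library far from the other 3 by Dixon's criterion, and chance gives about 1 in 20. Gpnmb read 0.429 CPM in ND-fed WT male 4 and 0 in the other 3 libraries, a difference of few counts. Tyrobp read 8.97 CPM in ND-fed Cyp2b-null female 3 and 14.6 to 15.4 CPM in the rest. Atp6v0d2 read 2.48 CPM in ND-fed Cyp2b-null male 3 and 1.12 to 1.31 CPM in the rest. Itgax read 20.2 CPM in CDAHFD-fed WT male 1 and 40.9 to 44.7 CPM in the rest, and this library was also lowest for most of the other genes and for the pan-macrophage sum.

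Differences between males and females in the diet effect (male minus female log2 fold change) were flagged for Atp6v0d2 and Lgals3. The rule for a flag was an adjusted p under 0.05 in the edgeR quasi-likelihood test. The flagged differences were 3.01 for Atp6v0d2 in WT mice, 3.91 for Atp6v0d2 in Cyp2b-null mice and 1.38 for Lgals3 in Cyp2b-null mice. The values come from the edgeR fit of all 8 groups. In WT mice, Lgals3 and Tyrobp had larger values than the last, at 1.45 and 1.51, and were not flagged. The diet effects in both sexes, from which these differences are formed, were known when the genes were chosen. The flags are therefore not read as tests. The differences are a description and are not independent evidence of a sex difference.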

How the results depend on the processing

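No gene of the set was called for genotype in the main fit, so there was no such call to reverse. The number of detected genes of the set called for the genotype effect on ND in males, with Gpnmb and Itgax not read, was 0. It became 1 by DESeq2 and 1 without the low-count filter. The sex differences and the dependence on genotype of these genes are formed from diet effects known when the genes were chosen. They are a description with no test, so no count of calls is given for them. The median diet log2 fold change in Cyp2b-null males was 4.05 and became 4.44 by library size only. Leaving out 1 library gave 0 to 1 genes of the set called for genotype on ND in males. The sex difference in the diet effect of Lgals3 in Cyp2b-null mice was lowest, 1.17, without ND-fed Cyp2b-null female 2. That of Tyrobp in WT mice was 1.94 without ND-fed WT male 3 and 1.74 without CDAHFD-fed WT male 1. The cause of these changes was not tested.

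Counts over all genes moved by more than 1.5 times as follows. Genotype on ND called 10 genes in females (23 by DESeq2, 122 without the filter) and 5 in males (3 by library size only, 61 by DESeq2, 170 without the filter, 8 with the replicate block, 2 with only the groups compared). Genotype on CDAHFD called 3 in females (5 by DESeq2, 69 without the filter) and 4 in males (51 without the filter, 2 without CDAHFD-fed Cyp2b-null male 4). The interaction called 0 in females (2 by DESeq2, 46 without the filter, 1 with a minimum of 1 CPM) and 1 in males (2 by library size only, 8 by DESeq2, 95 without the filter). The sex difference in the diet effect called 136 in WT (216 by DESeq2, 469 without the filter, 79 with only the groups compared) and 477 in Cyp2b-null mice (923 without the filter, 245 without CDAHFD-fed Cyp2b-null female 3 and male 4). Sex differences in the genotype effect called 1 gene on CDAHFD (2 by DESeq2, 49 without the filter, 0 without CDAHFD-fed Cyp2b-null female 3 and male 4, 2 with only the groups compared) and 1 on ND (2 by library size only, 5 by DESeq2, 63 without the filter, 2 with a minimum of 1 CPM, 2 without those 2 libraries, 2 with only the groups compared). Leaving out 1 library gave 2 to 29 genes for genotype on ND in males (29 without ND-fed WT male 2, 10 without Cyp2b-null male 4, 3 without WT male 4 or Cyp2b-null male 3 and 2 without Cyp2b-null male 2, each on ND) and 1 to 5 on CDAHFD in males (1 or 2 without any CDAHFD-fed WT male, CDAHFD-fed Cyp2b-null male 1, 3 or 4 or ND-fed Cyp2b-null male 3). For the sex difference in the diet effect it gave 84 to 261 in WT mice (84 without ND-fed WT female 3, 90 without ND-fed WT male 2, and 261, 90 and 87 without CDAHFD-fed WT male 1, 2 and 4) and 238 to 578 in Cyp2b-null mice (238 without CDAHFD-fed male 3 and 298 and 311 without ND-fed male 2 and 4). It gave 0 to 1 for the interaction in females and 0 to 3 in males, and 0 to 2 on CDAHFD and 1 to 2 on ND for the sex difference in the genotype effect.

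Labels number the replicates alike in each group, but same-numbered libraries did not deviate together: correlations ran from −0.104 to 0.165 in females and from −0.184 to 0.289 in males, so the numbers do not pair the samples. Among the counts over all genes, the replicate block moved only that for genotype on ND in males by over 1.5 times. Trem2 could not be assessed. Depth limited Gpnmb and Itgax on ND, where most libraries held few counts.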

Other observations

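The processed pseudogene Cd63-ps followed the mean Z-score of the set with r = 0.987 in each of the female and male tables. Of the 726 windows of 150 bases in its transcript, 104 (14.3%) occur without a mismatch in Cd63, so part of its reads cannot be placed by sequence alone. With the counts of Cd63 and Cd63-ps summed, a setting chosen after their levels were seen, Cd63 remained uncalled for genotype on either diet.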
